A study of Mus musculus with 10 samples.

Results

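Thy1, Procr, Rarres2 and Cdkn1a are 4 genes that the study discusses in connection with mammary cells that carry the Thy-1 antigen. They were described here in 5 sorted populations of mouse mammary cells. Their members on the array were the probe sets whose only gene symbol was one of these names, which gave 5 of the 3663 probe sets in the deposited table. Thy1 (1423135_at), Procr (1420664_s_at) and Rarres2 (1437902_s_at) had 1 probe set each, and Cdkn1a had 2 (1421679_a_at and 1424638_at), which were averaged. After averaging per gene the table held 2932 features, of which 2560 were named genes. The suffix _s_at marks probe sets whose probes match more than 1 transcript, so the signals of Procr and Rarres2 could include related transcripts.

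All cells came from virgin FVB females of 6 to 8 weeks, with no treatment, and were sorted in a double pass after cells carrying CD45, CD31, Ter119 or, per the methods, CD140α had been removed. Each population had 2 arrays. The basal populations were Thy-1+CD24medCD49fhigh, Thy-1-CD24medCD49fhigh and CD24medCD49fmed (6 arrays), and the luminal populations were CD24highCD49fmed and CD24medCD49f-/low (4 arrays). The methods of the study name a CD24lowCD49fmed myoepithelial gate where the labels have CD24medCD49fmed, and the sources do not say whether the gates are the same. No label ties an array to a single animal or a pool, so the spread between the arrays of a population may be technical. The limma p-values below rest on that spread, pooled over the populations and moderated with the spread of the other features. The rank products p-values below came from values shuffled over features within each array and do not estimate that spread.

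The mammary epithelium is a bilayer of inner luminal cells, which make milk, and outer basal cells, which contract and include cells able to rebuild a gland after transplantation. Thy1 encodes Thy-1, a small glycoprotein held in the membrane by a glycosylphosphatidylinositol (GPI) anchor that binds integrins and is also common on fibroblasts and neurons. Procr encodes the endothelial protein C receptor, which presents protein C to the thrombin-thrombomodulin complex and is known as a Wnt target in mammary basal cells. Rarres2 encodes chemerin, a secreted protein that proteases activate and that attracts leukocytes through the receptor Cmklr1. Cdkn1a encodes p21, an inhibitor of cyclin-dependent kinases (CDKs) that p53 and TGF-beta signalling induce.

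Values are log2 intensities that the authors centred on the mean of the 10 arrays, so a value of 0 is the mean of that gene over all arrays and a level cannot be compared between genes. Array medians ran from -0.43 to 0.17. Only the CD24highCD49fmed arrays and Thy-1-CD24medCD49fhigh replicate 2 were closest to their own partner, and every other array was closest to another population. Over all probe sets the 2 Thy-1+CD24medCD49fhigh arrays correlated at 0.45, and replicate 1 of them at 0.84 with CD24medCD49fmed replicate 2. The CD24medCD49f-/low arrays correlated at 0.36, and replicate 1 of them at 0.76 with CD24highCD49fmed replicate 1. Marker genes were used to check basal against luminal arrays, not each population by itself. All 12 basal markers in the table were higher in basal arrays (Actg2 by 4.61 and Krt14 by 4.49 on the log2 scale), and 10 of 13 luminal markers were lower (Foxa1 by -3.25, Elf5 by -2.42), while Krt19, Cldn4 and Cldn7 were not called. Of all features, 34.7% were called higher and 41.3% lower in basal arrays. The mean of the luminal markers was 0.32 in Thy-1+CD24medCD49fhigh replicate 2, -1.92 to -0.24 in the other basal arrays and 0.51 to 1.57 in luminal arrays.

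All 4 genes were higher in basal than in luminal cells. Their basal mean exceeded the luminal mean by 1.59 for Rarres2, 1.32 for Thy1, 1.15 for Cdkn1a and 1.11 for Procr on the log2 scale, and limma called each of them at an adjusted p under 0.05. In this comparison 34.7% of all 2932 features were called higher in basal cells (76.0% in either direction). The 4 of 4 was thus read against a background that was itself large. Thy-1+CD24medCD49fhigh was sorted for Thy-1, so the difference of Thy1 was not independent of the gate. Without the Thy-1+ arrays in the contrast limma gave Thy1 a difference of 0.79, not called (adjusted p = 0.0994). Within the basal compartment the mean of each gene was highest in Thy-1+CD24medCD49fhigh, for Cdkn1a by only 0.03 over CD24medCD49fmed. None of the 4 differed from Thy-1-CD24medCD49fhigh after adjustment. In bulk RNA, a lower value can come from fewer cells that express a gene or from less RNA per cell, and these cannot be told apart.

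**Figure D1:**
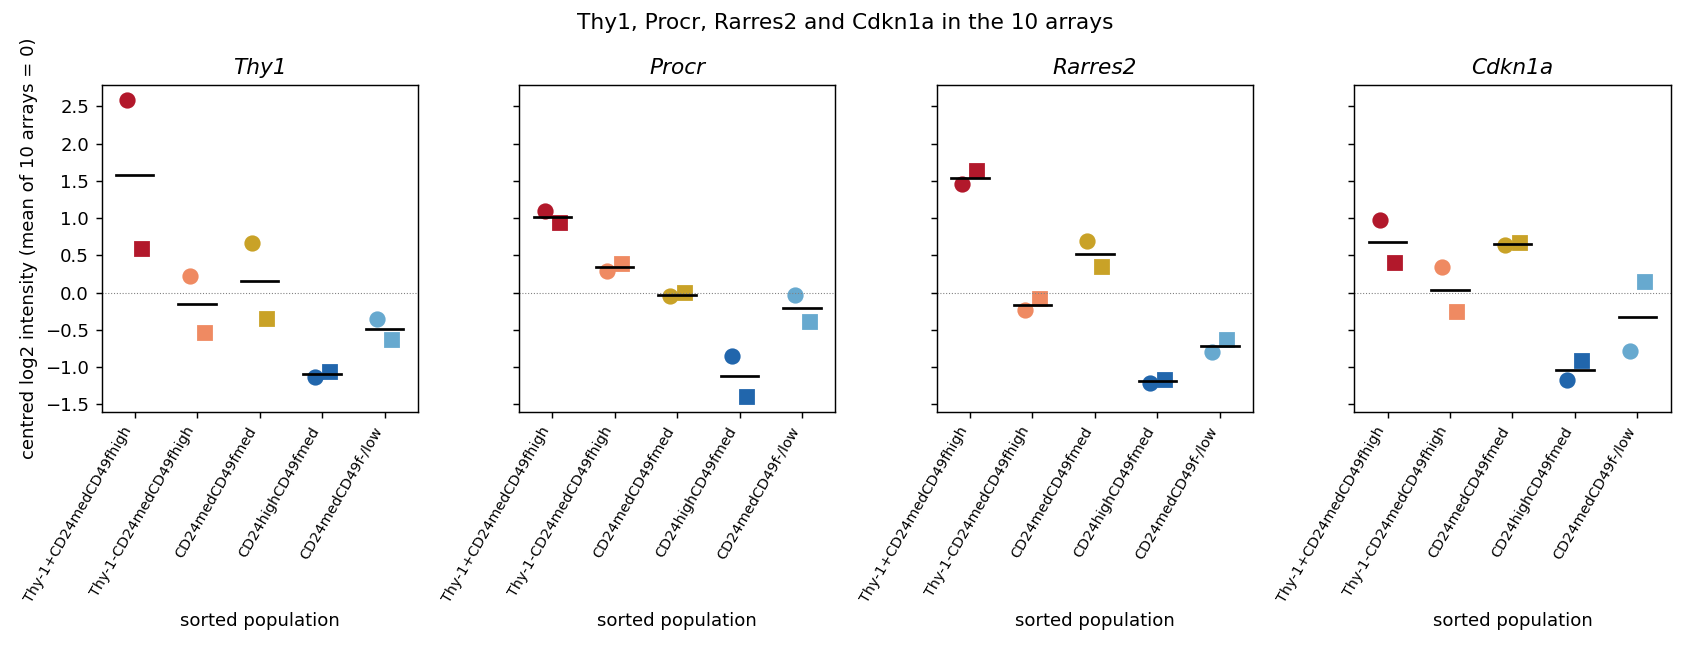
Centred log2 intensity (vertical axis, 0 is the mean of the 10 arrays) of the 4 genes in each array, by sorted population. Circles are the array with the lower replicate number, squares the other, and bars the mean of the 2 arrays. CD24highCD49fmed had the lowest mean in every panel, and the arrays of Thy-1+CD24medCD49fhigh lay far apart for Thy1 (2.59 and 0.58).

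Thy1 was the sort marker itself, so its values are a check of the labels rather than a finding. In Thy-1+CD24medCD49fhigh the arrays had centred values of 2.59 and 0.58 (1.59 ± 1.42, mean ± SD, n = 2), and in Thy-1-CD24medCD49fhigh they had 0.23 and -0.54. The values were 0.67 and -0.36 in CD24medCD49fmed, -1.13 and -1.06 in CD24highCD49fmed, and -0.36 and -0.63 in CD24medCD49f-/low. Replicate 1 of Thy-1+CD24medCD49fhigh stood above every other array, and replicate 2 was below CD24medCD49fmed replicate 2. Both Thy-1+ arrays were above both Thy-1- arrays, as the sort labels state, and the basal and luminal arrays overlapped. Basal cells exceeded luminal cells by 1.32 ± 0.39 (log2 ± SE, 2.5-fold, adjusted p = 0.00533).

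The arrays of each basal population lay within 0.15 of each other for Procr. Its values were 1.10 and 0.94 in Thy-1+CD24medCD49fhigh, 0.29 and 0.39 in Thy-1-CD24medCD49fhigh, and -0.05 and -0.01 in CD24medCD49fmed. In luminal cells they were -0.85 and -1.40 in CD24highCD49fmed and -0.03 and -0.39 in CD24medCD49f-/low. The arrays of the basal populations did not overlap, but limma called no pair of them. For Thy-1+CD24medCD49fhigh above Thy-1-CD24medCD49fhigh alone, 17.3% of all features did not overlap. CD24medCD49f-/low replicate 1 reached the level of CD24medCD49fmed. Basal cells exceeded luminal cells by 1.11 ± 0.32 (log2 ± SE, 2.16-fold, adjusted p = 0.00436). The bases before the start of Procr are shown because the promoter is where signals that set its expression would act, with a match to the AP-1 motif TGACTCA in capitals, 154 to 148 bases before the start (RefSeq, GRCm38.p6, plus strand, chr2:155750967-155751216).
Procr: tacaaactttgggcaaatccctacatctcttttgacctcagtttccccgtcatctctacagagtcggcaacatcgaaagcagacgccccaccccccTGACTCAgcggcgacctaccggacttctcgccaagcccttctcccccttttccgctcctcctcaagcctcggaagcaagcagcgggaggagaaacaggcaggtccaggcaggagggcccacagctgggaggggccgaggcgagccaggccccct
Both strands were searched, and windows of 300 bases around the starts of all genes in RefSeq held this motif in 5.2% of 32851 cases, so it is a description of the window and does not show that AP-1 binds there. The TCF/LEF motif (CTTTGAA or CTTTGAT), found in 8.65% of windows, had no match in these letters. No window for Thy1 or Rarres2 was in the table.

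Rarres2 had the clearest separation of basal from luminal arrays among the 4 genes. Its values were 1.46 and 1.63 in Thy-1+CD24medCD49fhigh, -0.24 and -0.09 in Thy-1-CD24medCD49fhigh, and 0.70 and 0.35 in CD24medCD49fmed. They were -1.21 and -1.17 in CD24highCD49fmed and -0.80 and -0.64 in CD24medCD49f-/low. No basal array fell to the level of a luminal array, which was so for 25.2% of all features in this direction, and for Rarres2 alone among the 4 genes. Basal cells exceeded luminal cells by 1.59 ± 0.31 (log2 ± SE, 3.01-fold, adjusted p = 0.000221). Among basal cells the 2 Thy-1+ arrays were highest and the 2 Thy-1- arrays lowest, with CD24medCD49fmed between them. No pair of basal populations was called by limma for Rarres2. Both Thy-1+ arrays lay above all other basal arrays in 5.18% of features, and the share with the full order was not counted. Aldh1a1, a retinal dehydrogenase that the study names beside Rarres2, was higher in basal cells by 2.72 (adjusted p = 4.9e-06), and its Thy-1+ values of 1.70 and 2.54 lay around the 1.75 of Thy-1-CD24medCD49fhigh replicate 2.

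Cdkn1a was almost equal in 2 basal populations. Its values were 0.97 and 0.40 in Thy-1+CD24medCD49fhigh and 0.64 and 0.66 in CD24medCD49fmed, with means of 0.68 and 0.65. They were 0.34 and -0.26 in Thy-1-CD24medCD49fhigh, -1.17 and -0.92 in CD24highCD49fmed, and -0.79 and 0.14 in CD24medCD49f-/low. The arrays of CD24medCD49f-/low differed by 0.93, and its replicate 2 lay above Thy-1-CD24medCD49fhigh replicate 2. Basal cells exceeded luminal cells by 1.15 ± 0.33 (log2 ± SE, 2.21-fold, adjusted p = 0.00496), and the probe sets taken alone gave 1.04 (adjusted p = 0.00928) and 1.25 (adjusted p = 0.0028). The gene has 2 start sites in the RefSeq table, and the 250 bases before each are shown because Cdkn1a is a well-known p53 target. In the first window (GRCm38.p6, plus strand, chr17:29090729-29090978) the capitals mark a p53 response element of 20 bases with at most 1 mismatch, 51 to 32 bases before the start, and in the second (chr17:29093519-29093768) they mark 2 GC boxes, GGGCGG.
Cdkn1a start 1: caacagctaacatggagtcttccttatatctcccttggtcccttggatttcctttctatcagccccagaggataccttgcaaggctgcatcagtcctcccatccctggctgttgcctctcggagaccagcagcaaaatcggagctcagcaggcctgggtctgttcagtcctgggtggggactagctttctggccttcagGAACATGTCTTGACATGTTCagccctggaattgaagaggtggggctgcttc
Cdkn1a start 2: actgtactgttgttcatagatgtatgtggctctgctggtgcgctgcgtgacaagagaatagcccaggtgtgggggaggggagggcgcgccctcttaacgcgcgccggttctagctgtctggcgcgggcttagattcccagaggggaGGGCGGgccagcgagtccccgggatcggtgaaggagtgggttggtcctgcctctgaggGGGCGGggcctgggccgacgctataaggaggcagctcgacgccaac
The p53 element was found in 0.0883% of 32851 windows (29 windows) with the mismatch allowed, a search widened after the strict form had given no match, and the GC box in 35.7%. These matches describe the letters only, and no binding was measured.

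The difference between basal and luminal cells held with each of the 10 arrays left out in turn. The 4 genes were called in all 10 of these fits, with log2 differences of 0.99 to 1.66 for Thy1, 0.97 to 1.25 for Procr, 1.53 to 1.65 for Rarres2 and 0.91 to 1.38 for Cdkn1a. By rank products, the test in the methods of the study, none of the 4 passed p under 0.01 (0.111 for Thy1, 0.197 for Procr, 0.0673 for Rarres2 and 0.235 for Cdkn1a), while 7.74% of features passed in this direction.

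**Figure D2:**
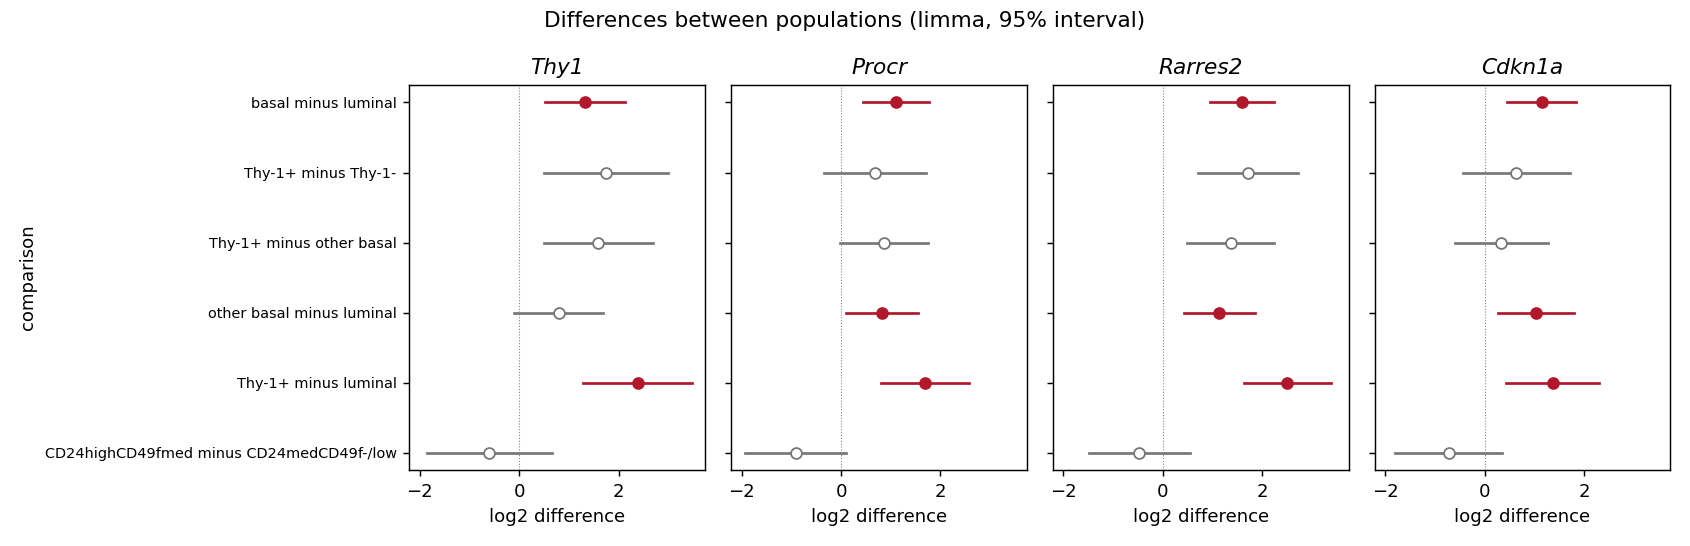
Log2 difference (horizontal axis) with its 95% interval from limma for the 4 genes in the 6 comparisons. Filled red points were called at an adjusted p under 0.05 and open grey points were not. Every gene was called in basal minus luminal and in Thy-1+ minus luminal, and none in Thy-1+ minus Thy-1-.

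The split of the CD24medCD49fhigh gate by Thy-1 was the comparison of most interest to the study. The means of Thy-1+CD24medCD49fhigh were above those of Thy-1-CD24medCD49fhigh by 1.74 ± 0.61 for Thy1, 1.71 ± 0.49 for Rarres2, 0.68 ± 0.49 for Procr and 0.64 ± 0.52 for Cdkn1a (log2 ± SE). None was called, with adjusted p-values of 0.384 for Rarres2 and 0.999 for the other 3, and limma called 2 of the 2932 features (0.0682%), which were Col3a1 and Abca8a, where 74 had an unadjusted p under 0.05. The intervals still reached 3.00 for Thy1, 2.72 for Rarres2, 1.70 for Procr and 1.72 for Cdkn1a. In all 4 genes both Thy-1+ arrays lay above both Thy-1- arrays, as in 17.3% of all features. The median of all features was itself 0.147 in this comparison and became -0.024 with array medians set to 0, and the 4 differences were then 1.57, 1.54, 0.51 and 0.47 for Thy1, Rarres2, Procr and Cdkn1a. Rank products called Thy1 (permutation p = 0.00348) and Rarres2 (permutation p = 0.00288) higher, as it did 1.33% of features, and did not call Procr or Cdkn1a. Thy1 and Rarres2 were in a gene set that the study drew for Thy-1+CD24medCD49fhigh partly from these arrays, so their direction is not independent evidence.

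Thy1 depended most on a single array. Its difference was 1.74 with all arrays, 0.74 without Thy-1+CD24medCD49fhigh replicate 1 and 2.75 without replicate 2, and Cdkn1a ranged from 0.34 to 0.94 over the arrays left out. Rarres2 kept a difference of 1.63 to 1.80 and Procr one of 0.61 to 0.76.

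**Figure D3:**
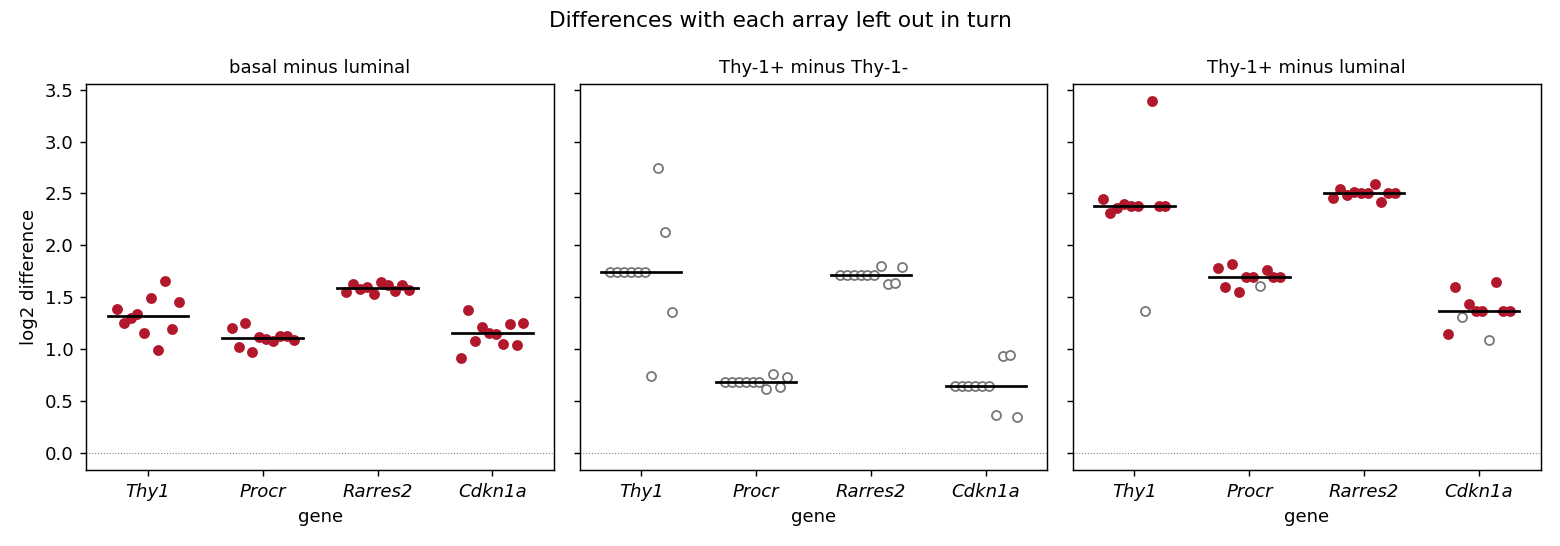
Log2 difference (vertical axis) of the 4 genes with each of the 10 arrays left out in turn (points), beside the value from all arrays (black bar), in 3 comparisons. Filled red points have an adjusted p under 0.05. In Thy-1+ minus Thy-1-, Thy1 spread from 0.74 to 2.75 and Rarres2 from 1.63 to 1.80.

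Thy-1+CD24medCD49fhigh was also set against the mean of the other 2 basal populations, a comparison that shares its arrays with the last. The differences were 1.59 ± 0.52 for Thy1, 1.37 ± 0.42 for Rarres2, 0.87 ± 0.43 for Procr and 0.34 ± 0.45 for Cdkn1a (log2 ± SE), and limma called none of them, nor any of the 2932 features (0%), although 64 had an unadjusted p under 0.05. For Procr and Rarres2 both Thy-1+ arrays lay above all 4 other basal arrays, as in 5.18% of features, and for Thy1 and Cdkn1a the arrays overlapped. The difference of Thy1 was 0.58 without Thy-1+CD24medCD49fhigh replicate 1 and 2.59 without replicate 2, and that of Cdkn1a was 0.05 and 0.62. Without Thy-1-CD24medCD49fhigh replicate 2 the difference of Cdkn1a was 0.19. Rank products gave a permutation p of 0.000945 for Thy1 and 0.00324 for Rarres2, both past its threshold, and called 1.43% of features in this direction.

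The other 2 basal populations were compared with luminal cells without the Thy-1+ arrays in the contrast. Rarres2 was higher by 1.14 (adjusted p = 0.00699), Cdkn1a by 1.03 (adjusted p = 0.0175) and Procr by 0.82 (adjusted p = 0.0407), where 31.5% of features were called higher. Thy1 had a difference of 0.79 with an interval of -0.10 to 1.68 and was not called (adjusted p = 0.0994). The call of Procr was lost without any single one of 6 arrays, those of CD24highCD49fmed (0.96 and 0.68), CD24medCD49fmed (0.83 and 0.81) and Thy-1-CD24medCD49fhigh (0.84 and 0.79), with adjusted p-values of 0.0562 to 0.176. Cdkn1a lost its call when CD24highCD49fmed replicate 1 was left out (0.97, adjusted p = 0.0738), and likewise when the Thy-1-CD24medCD49fhigh array numbered 1 was (0.88, adjusted p = 0.0654). Rank products called none of the 4 genes here, and 7.13% of features.

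Thy-1+CD24medCD49fhigh exceeded the luminal populations in each gene, by 2.50 for Rarres2 (5.67-fold, adjusted p = 0.000133), 2.38 for Thy1 (5.2-fold, adjusted p = 0.00145), 1.69 for Procr (3.22-fold, adjusted p = 0.00396) and 1.37 for Cdkn1a (2.59-fold, adjusted p = 0.0175). All 4 were called, as were 28.4% of features in this direction. For Thy1, the sort marker, this is a check of the labels. Without Thy-1+CD24medCD49fhigh replicate 1 the call remained for Rarres2 and was lost for Thy1 (1.37, adjusted p = 0.122), Procr (1.61, adjusted p = 0.0571) and Cdkn1a (1.09, adjusted p = 0.173). Cdkn1a was also lost without CD24highCD49fmed replicate 1 (1.31, adjusted p = 0.0629). Rank products called none of the 4 here, against 5.18% of features.

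The luminal populations did not differ detectably in any of the 4 genes. CD24highCD49fmed was below CD24medCD49f-/low by -0.91 in Procr (interval -1.94 to 0.11), -0.72 in Cdkn1a (-1.80 to 0.36), -0.60 in Thy1 (-1.85 to 0.66) and -0.47 in Rarres2 (-1.48 to 0.54), where 0.205% of features were called in either direction. The median of all features was 0.345 here and -0.031 with array medians set to 0, after which the 4 differences were -1.29, -1.10, -0.97 and -0.85. The difference of Cdkn1a was -1.18 with CD24medCD49f-/low replicate 1 left out and -0.25 with its replicate 2 left out.

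The order of the group means was alike across the genes. Thy-1+CD24medCD49fhigh was highest and CD24highCD49fmed lowest in all 4, with CD24medCD49f-/low in the fourth place. The share of all features with such an order was not counted, and the order of Thy1 was not independent of the gate. CD24medCD49fmed came second for Thy1, Rarres2 and Cdkn1a, and Thy-1-CD24medCD49fhigh came second for Procr. For Cdkn1a the highest means were 0.68 and 0.65, and Thy-1+CD24medCD49fhigh replicate 2 (0.40) was below both CD24medCD49fmed arrays (0.64 and 0.66). None of the 16 pairs of neighbours in these orders was called after adjustment. Some did not overlap in their arrays, such as Thy-1+CD24medCD49fhigh (1.10 and 0.94) above Thy-1-CD24medCD49fhigh (0.29 and 0.39) in Procr. The same held for 17.3% of all features in that pair and direction. Between basal populations limma called 0.0682% of features for Thy-1+CD24medCD49fhigh against Thy-1-CD24medCD49fhigh, 0% against CD24medCD49fmed, and 0.102% for Thy-1-CD24medCD49fhigh against CD24medCD49fmed. Of the 40 pairs of populations over the 4 genes 9 were called, each a basal population above a luminal one. Thy-1+CD24medCD49fhigh was above CD24highCD49fmed in all 4 genes, by 2.74 for Rarres2 (adjusted p = 0.000257), 2.68 for Thy1 (adjusted p = 0.00189), 2.14 for Procr (adjusted p = 0.00211) and 1.73 for Cdkn1a (adjusted p = 0.0108), where 26.3% of features were called higher. It was above CD24medCD49f-/low in Rarres2 (2.27, adjusted p = 0.00253) and Thy1 (2.08, adjusted p = 0.0173), against 18.9% of features. CD24medCD49fmed was above CD24highCD49fmed in Rarres2 (1.72, adjusted p = 0.00637) and Cdkn1a (1.70, adjusted p = 0.00944), against 27.4% of features, and Thy-1-CD24medCD49fhigh was above it in Procr (1.46, adjusted p = 0.0171), against 21.8%. No gene of the 4 was called between CD24medCD49f-/low and either Thy-1-CD24medCD49fhigh or CD24medCD49fmed, where 17.4% and 22.0% of features were higher in the basal population.

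Over the 10 arrays the 4 genes had pairwise Pearson correlations of 0.72 (Procr and Cdkn1a) to 0.85 (Procr and Rarres2). These points share arrays and the contrast between basal and luminal cells. Over the 6 basal arrays alone the correlation of Procr with Cdkn1a was 0.18, and it was -0.37 without Thy-1+CD24medCD49fhigh replicate 1. The other pairs had 0.58 to 0.73 in basal arrays, and Thy1 with Procr fell to 0.21 without the same array.

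Markers of other cell types varied across the same arrays, and how closely they followed the 4 genes differed. Over the 6 basal arrays the fibroblast mean correlated at 0.91 with Rarres2, 0.81 with Cdkn1a, 0.78 with Thy1 and 0.49 with Procr. For the pericyte mean these values were 0.99, 0.58, 0.76 and 0.78. The mean of the 11 fibroblast genes in the table (of 14 listed) reached 1.44 and 1.10 in Thy-1+CD24medCD49fhigh, 0.25 and 0.27 in Thy-1-CD24medCD49fhigh, 1.01 and 0.83 in CD24medCD49fmed, and -1.59 to -0.84 in luminal arrays. In basal minus luminal limma called 10 of the 11 higher and Col6a3 lower (-2.23, adjusted p = 1.09e-05), against 34.7% and 41.3% of all features. Col3a1, a collagen of connective tissue, was the fibroblast gene called in Thy-1+ minus Thy-1- (3.29, adjusted p = 0.00389). The mean of the 6 pericyte genes (of 10) was 0.99 and 1.00 in Thy-1+CD24medCD49fhigh, -0.07 in both Thy-1- arrays, 0.35 and 0.15 in CD24medCD49fmed and at most -0.25 in luminal arrays. No pericyte gene was called in Thy-1+ minus Thy-1-, where 0.0682% of features were. The median difference of the pericyte genes there was 1.16, against 0.147 for all features. It was not alone in this, with medians of 0.63 for the fibroblast, 0.71 for the Schwann cell and 1.67 for the epidermal keratinocyte genes. The 4 adipocyte genes in the table (of 9) had a median of 0.63. The basal and luminal markers had medians of 0.12 and 0.25.

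The 7 Schwann cell genes in the table (of 11) had means of 0.77 and 0.90 in Thy-1+CD24medCD49fhigh, -0.06 and 0.07 in Thy-1-CD24medCD49fhigh, 0.75 and 0.70 in CD24medCD49fmed and -0.91 to -0.57 in luminal arrays. Of these, limma called 6 higher in basal cells and Erbb3 lower (-1.44, adjusted p = 0.00378), against 34.7% and 41.3% of all features. No endothelial gene of 13 was in the table, and of the 15 leukocyte genes only Lcp1 was, lower in basal cells by -1.76 (adjusted p = 0.000485). Of 6 erythroid genes only Hba-a2 was, higher by 1.73 (adjusted p = 0.00161). Centring hides the level of these markers, so none could be placed at or near background.

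Epidermal keratinocyte genes were high in only 2 arrays. Thy-1+CD24medCD49fhigh replicate 1 and CD24medCD49fmed replicate 2 had means of 2.50 and 1.93 over the 7 genes in the table (of 12), while the other basal arrays ran from -0.61 to 0.02 and the luminal arrays from -1.08 to -0.72. Krt1, a keratin of differentiating epidermis, was 3.32 and 2.86 in these arrays, and Krt77 was 3.60 and 3.17. The same 2 arrays held the highest values of Thy1 (2.59 and 0.67). Without both of them, a choice made after seeing the data, basal exceeded luminal cells by 0.81 in Thy1 (adjusted p = 0.0639), 1.09 in Procr (adjusted p = 0.0217), 1.56 in Rarres2 (adjusted p = 0.00447) and 1.05 in Cdkn1a (adjusted p = 0.0342). The part of these other cells in the results was not tested.

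**Figure D4:**
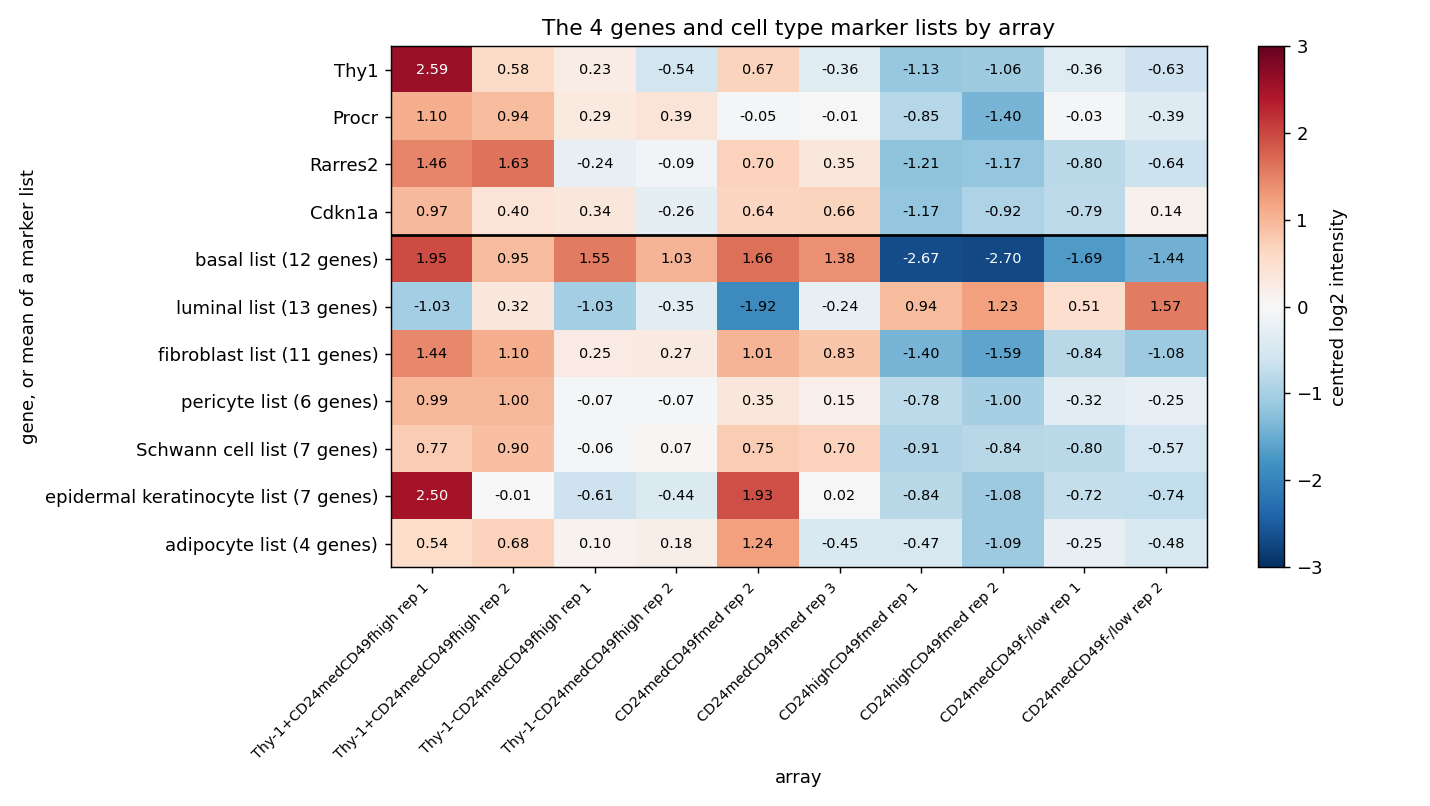
Centred log2 intensity (colour, with the value in each cell) of the 4 genes and of the mean of 7 marker lists in the 10 arrays. The epidermal keratinocyte list was 2.50 and 1.93 in Thy-1+CD24medCD49fhigh replicate 1 and CD24medCD49fmed replicate 2 and at most 0.02 elsewhere. The pericyte list was highest in both Thy-1+ arrays (0.99 and 1.00).

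The genes most alike to each member over the 10 arrays differed between the 4. For Thy1 they were Krt16, a keratin of activated epidermis (r = 0.957), Fhl1, a LIM domain protein of muscle (0.952), Sparcl1, a matricellular protein (0.941), Tgfbi, a matrix protein induced by TGF-beta (0.938), and Thbd, thrombomodulin (0.937). The pattern of Thy1 was most opposed by Psme4, a proteasome activator (-0.923). For Procr they were Rgs5, a regulator of G-protein signalling found in pericytes (0.941), Gas7 (0.916), Vgll3 (0.910), the muscle kinase Speg (0.908) and the secreted Igfbp7 (0.893), with Shroom2, an actin-binding protein, at the other end (-0.927).

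For Rarres2 the nearest genes were Col1a2, a chain of type I collagen (r = 0.991), Abca8a, a lipid transporter (0.981), Avpr1a, a vasopressin receptor (0.977), Zeb2, a transcription factor of mesenchymal cells (0.964), and S1pr3, a sphingosine-1-phosphate receptor (0.963), with Nbea lowest (-0.905). For Cdkn1a they were Actn1, an actin crosslinker (0.989), Arhgap23 (0.986), Kctd10 (0.977), Spock2 (0.966) and Gstm1, a glutathione transferase (0.965), with Bmi1, a Polycomb repressor, lowest (-0.982). Cdkn1a had 140 features with r over 0.9 (4.78% of 2931), against 21 for Rarres2 (0.716%), 12 for Thy1 (0.409%) and 5 for Procr (0.171%). These correlations describe 10 arrays that fall into basal and luminal sets. For Thy1 they also reflect a single array. Krt16 and Psme4 were not called in basal minus luminal by limma (adjusted p = 0.0673 and 0.0689). Over the basal arrays alone their r with Thy1 was 0.97 and -0.88. Both were most extreme in Thy-1+CD24medCD49fhigh replicate 1 (1.46 and -1.3), which also had the highest epidermal keratinocyte genes.

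Abca8a, which was also called in Thy-1+ minus Thy-1- (2.74, adjusted p = 0.0474), had values of 1.92 and 2.82 in Thy-1+CD24medCD49fhigh and -0.79 and 0.04 in Thy-1-CD24medCD49fhigh. Zeb2 had a difference of 2.48 there and was not called (adjusted p = 0.0886).

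The genes around each member were taken from lists of partners and pathways, and counted for basal minus luminal. The median of all features in this comparison was -0.111, with 34.7% of features called higher and 41.3% called lower. Of the 15 Thy-1 ligands and other GPI-anchored proteins in the table (of 30 listed), 11 were higher and 2 lower in basal cells, with a median of 1.37. The integrin subunits Itgav (1.37, adjusted p = 0.00202) and Itgb3 (1.26, adjusted p = 0.00472), which form a receptor that binds Thy-1, were both higher. Among GPI-anchored proteins Nt5e (CD73, 2.35), Gpc3 (glypican 3, 2.10) and Prnp (the prion protein, 2.01) were higher and Cd55, which restrains complement, was lower (-2.22), as was Ly6d (-0.84). Cntn1 and Folr1 were not called.

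Of the 7 genes of the protein C and thrombin pathway in the table (of 22), 6 were higher in basal cells and 1 lower, with a median of 1.96. Thbd, the thrombomodulin that acts with the receptor encoded by Procr, was higher by 1.20 (adjusted p = 0.00355), and F2r, the thrombin receptor, by 2.32 (adjusted p = 3.25e-05). Plau (2.73) and Plat (2.31), the plasminogen activators, and Pros1 (1.96), the cofactor protein S, were also higher. F3, tissue factor, was the lower one (-1.85, adjusted p = 0.000104). Of the Wnt target genes 6 of 22 were in the table and all 6 were higher, with Wif1, a secreted Wnt inhibitor, at 4.59, Dkk3 at 2.53, Nkd2 at 2.09 and Lgr6 at 1.60. Of the mesenchymal genes linked to Procr cells all 11 in the table (of 20) were higher, led by Sparc (4.12), Mmp2 (4.01), Vim (3.35) and Cdh2 (3.16), and their median was 1.97.

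For Rarres2 the receptors Cmklr1 and Gpr1 were not analysed here. Of the 4 genes of the chemerin list in the table (of 17), Ccrl2, which binds chemerin without signalling, was lower in basal cells by -1.26 (adjusted p = 0.00298), and the proteases Plau, Plat and Ctsl (1.68, adjusted p = 0.000756) were higher. Of the 6 genes of retinoid metabolism and response in the table (of 25), 2 were higher, Aldh1a1 and Rdh10 (1.37, adjusted p = 0.00104), and 4 were lower, which were Aldh1a3 (-1.24, adjusted p = 0.0108), Dhrs3 (-1.19, adjusted p = 0.00558), Tgm2 and Crabp2. Their median was -1.10.

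Around Cdkn1a, 3 genes of the CDK inhibitor list were in the table (of 7), and 1 was called. Cdkn1c (p57) was higher in basal cells by 2.70 (adjusted p = 3.61e-06). Cdkn1b (p27) had a difference of 0.45 (adjusted p = 0.309) and Cdkn3 one of 0.32 (adjusted p = 0.453), both not called. Of the 16 cyclins, CDKs and replication genes in the table (of 34), 12 were not called, with a median of 0.20, and those called were Ccnd2 (2.55) and Cdk4 (1.13), higher, and Ccnd3 (-1.43) and Cdk6 (-0.98), lower. In CD24highCD49fmed minus CD24medCD49f-/low the median of these 16 was 1.26, against 0.345 for all features. There 15 of the 16 differences were positive and none was called. Of 6 p53 target genes (of 26), Phlda3 (2.10) and Perp (1.85) were higher, Rrm2b (-1.38) and Ccng1 (-1.20) lower, and Btg2 and Sesn1 were not called. Mdm2 and Ccnd1 were not analysed here.

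Of the 7 TGF-beta and stress genes in the table (of 22), Tgfbr3 (3.27), Tgfbr1 (1.24) and Tgfbi (1.22) were higher, Tgfbr2 was lower (-1.44), and Cebpa, Id2 and Klf6 were not called. Of the 7 immediate early genes (of 20), 4 were higher, led by Egr3 (2.66), Egr2 (1.88) and Nr4a1 (1.06), Klf2 was lower (-1.78), and Btg2 and Ier2 were not called. In Thy-1+ minus Thy-1- no gene of any of these 11 lists was called, where limma called 0.0682% of features.

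**Figure D5:**
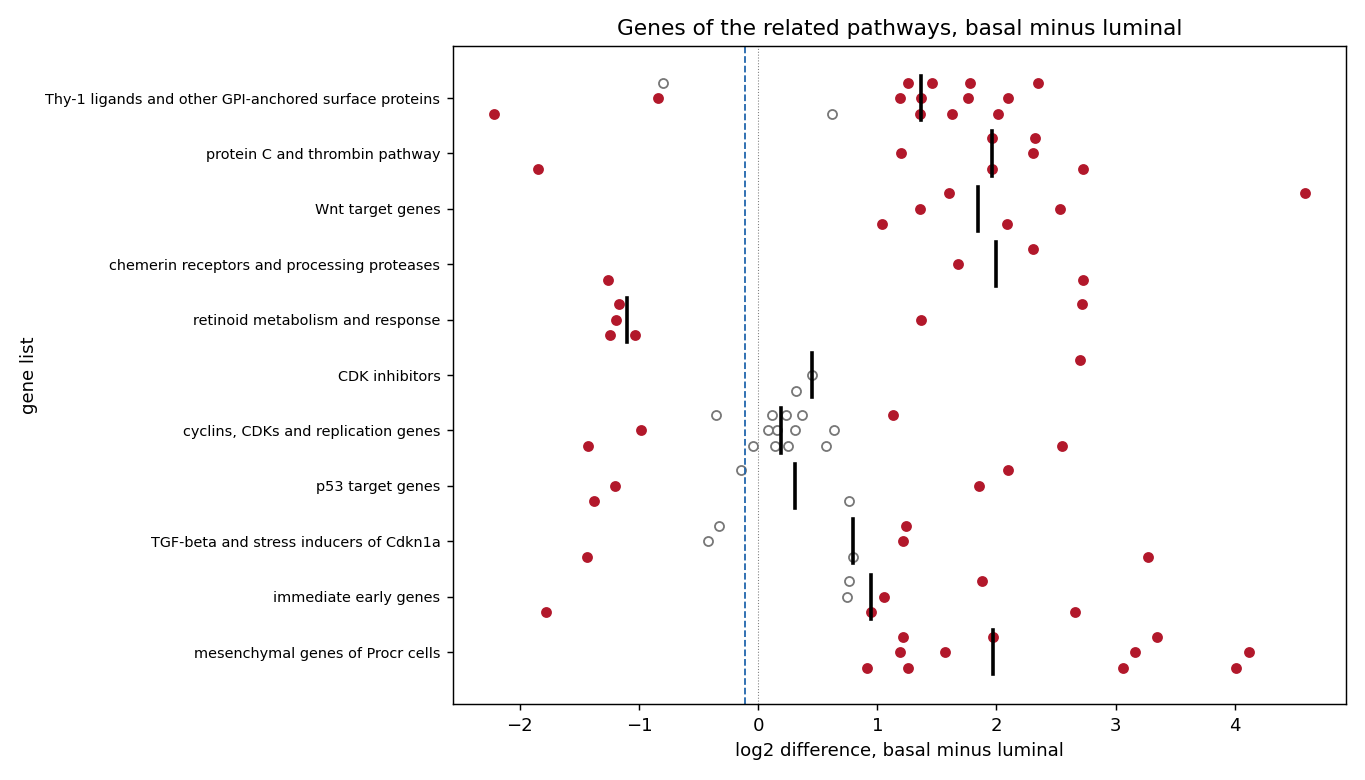
Log2 difference of basal minus luminal (horizontal axis) for each gene of 11 lists in the table (points, filled red where the adjusted p was under 0.05). Black bars are list medians and the dashed blue line is the median of all 2932 features (-0.111). The protein C, Wnt and mesenchymal lists had medians of 1.96, 1.84 and 1.97, and the cyclin list one of 0.20.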

How the data were processed

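RNA from 10 sorted samples was hybridised to Affymetrix whole-genome mouse arrays after 3' labelling with 2 cycles of amplification. The deposited log2 values had been normalised across arrays by the authors, by RMA per the methods, while the submitters' processing notes name RMA and GCRMA with no version. The authors then dropped probe sets below a minimum level or varying under 4-fold, and centred each probe set, so neither abundance nor depth is known here and the number of arrays limits the precision. The genome build behind the probe set annotation is not given in the sources used here, and the promoter windows are from RefSeq.

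Probe sets with 1 symbol (3291 of 3663) were averaged per gene. Those with several symbols (75) or not listed (297) were kept unnamed. limma 3.58.1 in R 4.3.3 fitted a mean per population to all 10 arrays (5 residual and 16.5 prior degrees of freedom), with two-sided tests and Benjamini-Hochberg adjustment over 2932 features per comparison. A gene was called at an adjusted p under 0.05. Scripts were tested on simulated data.

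The 4 genes and all lists were chosen with earlier results of these data known. The genes named were the 4, the 5 most alike and the 1 least alike to each by Pearson r, up to 4 called genes per list by size of difference, those called in Thy-1+ minus Thy-1-, and partners of the 4 gene products. Further list genes, where 5 or fewer fell on one side of a count, were named after their values were seen. Alternatives were other scalings, variance moderation, a replicate block, only the arrays compared, single probe sets, named genes only, rank products and each array left out.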

Additional observations from a re-analysis of the deposited data

How the results depend on the processing

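No difference of the 4 genes changed direction in 462 combinations of gene, comparison and setting, and 424 kept their side of the threshold. By rank products (100 permutations, p under 0.01), the log2 differences being those of limma, basal minus luminal was not called for Thy1 (1.32, p = 0.111), Procr (1.11, p = 0.197), Rarres2 (1.59, p = 0.0673) or Cdkn1a (1.15, p = 0.235), other basal minus luminal for Procr (0.82, p = 0.315), Rarres2 (1.14, p = 0.242) or Cdkn1a (1.03, p = 0.277), and Thy-1+ minus luminal for Thy1 (2.38, p = 0.0175), Procr (1.69, p = 0.0989), Rarres2 (2.50, p = 0.0114) or Cdkn1a (1.37, p = 0.199). By their permutation p, rank products called Thy1 (1.74, p = 0.00348) and Rarres2 (1.71, p = 0.00288) in Thy-1+ minus Thy-1-, and Thy1 (1.59, p = 0.000945) and Rarres2 (1.37, p = 0.00324) in Thy-1+ minus other basal. The cause was not tested.

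Without both arrays high in epidermal keratinocyte genes, calls were lost in basal minus luminal for Thy1 (0.81, adjusted p = 0.0639), in other basal minus luminal for Procr (0.83, adjusted p = 0.0724), and in Thy-1+ minus luminal for Thy1 (1.37, adjusted p = 0.13), Procr (1.61, adjusted p = 0.0883) and Cdkn1a (1.09, adjusted p = 0.211), with fewer arrays in the fit. In other basal minus luminal, setting array medians to 0 lost the call of Procr (0.76, adjusted p = 0.0531), and quantile normalisation lost those of Procr (0.67, adjusted p = 0.075) and Cdkn1a (0.72, adjusted p = 0.0792). For the differences that lost their call without at least 1 single array, the range over all 10 arrays left out in turn was 0.68 to 0.96 (Procr) and 0.80 to 1.27 (Cdkn1a) in other basal minus luminal, and 1.37 to 3.39 (Thy1), 1.55 to 1.82 (Procr) and 1.09 to 1.65 (Cdkn1a) in Thy-1+ minus luminal.

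The labels do not say whether equal replicate numbers mark paired samples. Same-numbered arrays deviated together at 0.521 between the luminal populations and at 0.3 between the CD24medCD49fhigh populations. Between the other populations the correlations were -0.198 to 0.078, and a batch shared by some populations was not tested. CD24medCD49fmed replicate 3 had no same-numbered array, so it stood alone in its block. With the number as a replicate block, other basal minus luminal was 1.23 for Thy1 (adjusted p = 0.0217, called), 0.87 for Procr (adjusted p = 0.106) and 1.03 for Cdkn1a (adjusted p = 0.0562), both no longer called, and the block changed no other call of the 4 genes. Of 115 called genes on the lists none turned sign under either scaling, and quantile normalisation lost 10 of the calls while array medians of 0 lost 2. Quantile normalisation kept 3 or 4 of the 5 genes most alike to each member, and array medians set to 0 kept 4 or 5.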
